A study of Homo sapiens with 9 samples.

Results

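The genes described here are 44 genes of DNA replication and mitosis, taken as a list of 24 S phase genes (the MCM helicase, replication factors, polymerases, nucleotide synthesis, cyclin E and E2F) and a list of 20 G2/M genes (mitotic cyclins, mitotic kinases, spindle and centromere genes). They were listed by gene name, with earlier results of these data known, and matched to probes whose RefSeq accession maps to the gene. All 44 were on the array, on 53 probes, out of 19479 genes that the accessions name. All 53 probes were well above background on each of the 9 arrays, so no member was lost to the filter on dim probes that left 16082 genes tested.

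The study asked how mRNA levels change across the genome when SmcHD1 is reduced. SmcHD1 is a chromatin protein related to the structural maintenance of chromosomes family and is known for its part in silencing the inactive X chromosome. HEK293 cells, which were derived from human embryonic kidney and carry the adenovirus E1A and E1B genes, were infected with a retroviral vector that also encodes GFP and puromycin resistance, and were selected with puromycin. All 3 groups therefore carry the vector and passed the selection. KD3 cells carried shRNA 3 against SmcHD1, KD4 cells carried shRNA 4 against SmcHD1, and CTL cells carried the control shRNA NC5, with 3 arrays in each group. The groups are infected populations and not clones. The list of cell lines in the methods names HEK293T and not HEK293. No other treatment was given. The methods call the samples biological triplicates, and nothing in the sources states that they came from separate infections, so p-values measure the spread between these samples, which may be technical.

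Cells duplicate their DNA in S phase and divide in M phase, and both steps need genes that are transcribed in waves. Genes for licensing and copying DNA are turned on at the passage from G1 to S by E2F factors once the retinoblastoma proteins release them, and adenovirus E1A is known for displacing those proteins from E2F. Genes for mitosis follow in G2 and M, mainly through promoters with CCAAT boxes and the cell cycle genes homology region (CHR) bound by the DREAM and B-MYB complexes. In RNA from a bulk culture, fewer cells in a phase and less RNA per cell in that phase cannot be told apart.

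The promoters of 37 of the 44 members were in the RefSeq promoter table (GRCh38.p14), each spanning 250 bases before to 50 after the start of the gene. The E2F words TTTCCCGC, TTTGGCGC, TTTCGCGC and TTTGCCGC were searched on both strands, and at least 1 was in the promoters of 14 of 21 S phase members (66.7%), 1 of 16 G2/M members (6.25%, CDK1) and 3.31% of the 35116 promoters in the table. The CHR words TTTGAA and TTCGAA were in 2 of 21 S phase members (9.52%), 10 of 16 G2/M members (62.5%) and 16.4% of all promoters. CCAAT was in 13 of 21 S phase members (61.9%), 13 of 16 G2/M members (81.2%) and 34.6% of all promoters. A match is a description of the letters, and no word of one motif is contained in a word of another. The stretches below run from 150 bases before to 30 after the gene start and show the 4 members with the smallest adjusted p in either knock-down among those whose promoter holds an E2F or CHR word, so that RFC4, which holds neither, is not shown, and CDC20, which was added after its values were seen because it differed between the knock-downs. Capitals mark the E2F words in the first 4 promoters and the CHR word in that of CDC20.
E2F2 (chr1:23531204-23531383, minus strand): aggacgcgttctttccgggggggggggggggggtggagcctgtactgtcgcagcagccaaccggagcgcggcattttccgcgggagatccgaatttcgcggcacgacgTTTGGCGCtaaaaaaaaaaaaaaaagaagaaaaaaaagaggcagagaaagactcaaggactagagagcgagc
E2F1 (chr20:33686356-33686535, minus strand): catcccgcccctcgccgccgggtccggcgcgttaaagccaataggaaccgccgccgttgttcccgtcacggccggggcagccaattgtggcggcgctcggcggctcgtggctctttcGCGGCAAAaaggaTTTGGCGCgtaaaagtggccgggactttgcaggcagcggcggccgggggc
CDC6 (chr17:40287729-40287908, plus strand): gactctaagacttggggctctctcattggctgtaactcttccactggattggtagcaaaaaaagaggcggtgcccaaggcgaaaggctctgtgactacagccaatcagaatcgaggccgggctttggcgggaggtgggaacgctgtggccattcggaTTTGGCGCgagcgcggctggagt
PCNA (chr20:5126593-5126772, minus strand): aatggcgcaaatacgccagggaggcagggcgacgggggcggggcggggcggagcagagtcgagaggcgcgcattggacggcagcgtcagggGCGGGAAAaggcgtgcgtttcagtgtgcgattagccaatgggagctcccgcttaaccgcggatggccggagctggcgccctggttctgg
CDC20 (chr1:43358831-43359010, plus strand): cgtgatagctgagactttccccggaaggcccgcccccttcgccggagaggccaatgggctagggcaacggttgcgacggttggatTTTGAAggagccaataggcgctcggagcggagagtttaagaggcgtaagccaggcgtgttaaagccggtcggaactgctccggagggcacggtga
TTTGGCGC began 42 bases before the start of E2F2 and 20 before that of E2F1, which also held TTTGCCGC on the minus strand 33 bases before the start. In CDC6 the word TTTGGCGC began 8 bases after the start, and in PCNA the word TTTCCCGC was on the minus strand 59 bases before it. CDC20 held TTTGAA 65 bases before the start, with another on the minus strand 178 bases before it, outside the printed stretch.

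SMCHD1 itself was lower on every knock-down array than on every CTL array. The normalized log2 signal of its brightest probe was 11.20, 11.37 and 11.22 on CTL arrays 1 to 3, 10.40, 10.16 and 10.32 on KD3 arrays, and 9.63, 9.80 and 9.77 on KD4 arrays. The log2 difference from CTL was -0.97 in KD3 (1.96-fold, SE 0.0897, adjusted p = 0.00021 by limma) and -1.53 in KD4 (2.89-fold, SE 0.0897, adjusted p = 1.8e-05), and KD4 lay below KD3 (log2 difference -0.56, adjusted p = 0.019). The median processed signal of an array was 135.3 to 153.1 in KD3, 119.6 to 149.4 in KD4 and 140.5 to 181.4 in CTL before normalization, and 75.1% to 79.8% of probes were well above background. Of the markers of the labelled line, 8 of 8 were well above background on all 9 arrays, although 4 of 8 fell in KD3, and 4 of 8 fell and KRT18 rose in KD4 (0.34, adjusted p = 0.018). Those that fell included PAX2, with log2 differences of -2.41 and -2.65 on its brightest probe, whereas another PAX2 probe gave -0.0069 and 0.061. Of fibroblast markers, 3 of 5 were well above background on all 9 arrays, with COL1A2 and COL3A1 on none, and of blood cell markers, 4 of 4. No blood cell marker passed in either knock-down, and 1 fibroblast marker fell in KD3. The part of these differences in the results below was not tested.

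Among the 24 S phase members, 7 fell and 1 rose in KD3, and 10 fell and 1 rose in KD4, all by less than 1.8-fold. A member passed at an adjusted p under 0.05 from limma, adjusted over all tested probes. Those that fell included subunits of the helicase, the clamp and its loader as well as E2F1 and E2F2, and the gene that rose in both knock-downs was CDC6, which loads the helicase onto origins. In KD3 the share that fell was 29.2%, against 14.8% of all tested genes, and the share that rose was 4.17% against 10.4%. In KD4 the share that fell was 41.7% against 19.8%, and the share that rose was 4.17% against 14.7%. In either direction, 25.2% of all tested genes passed in KD3 and 34.5% in KD4. The median log2 difference of the list was -0.13 in KD3 and -0.15 in KD4, where the median over all tested genes was -0.014 and 0.0022. KD3 and KD4 were set against the same CTL arrays, so the values of each are given side by side and are not independent of each other.

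Among the 20 G2/M members, none passed in KD3 by limma, where 3 had an unadjusted p under 0.05 while 0 passed by the methods' t-test after adjustment. Of the 16082 tested genes, 6288 had an unadjusted p under 0.05 in KD3 and 375 passed by that t-test. In KD4, CDC20 and CCNA2 rose and no member fell, so that 10.0% rose, against 14.7% of all tested genes. The median log2 difference was 0.048 in KD3 and 0.11 in KD4, and 0.022 and 0.064 without CTL array 3. Differences were above 0 for 14 of the 20 in KD3 and 15 of the 20 in KD4. Both lists together gave 8 members that passed in KD3 (18.2%, against 25.2% of all tested genes) and 13 in KD4 (29.5%, against 34.5%), shares below the background. With the added requirement of a fold of at least 1.8, 0 of the 44 members passed by limma in either knock-down. The share of all tested genes was 4.43% in KD3 and 5.59% in KD4. At any fold, 14 and 18 of the 44 members had an unadjusted p under 0.05, where 6288 and 7514 of 16082 tested genes did. The methods' t-test with adjustment passed 0 and 6 members at any fold, and 375 and 1376 of all tested genes.

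**Figure D1:**
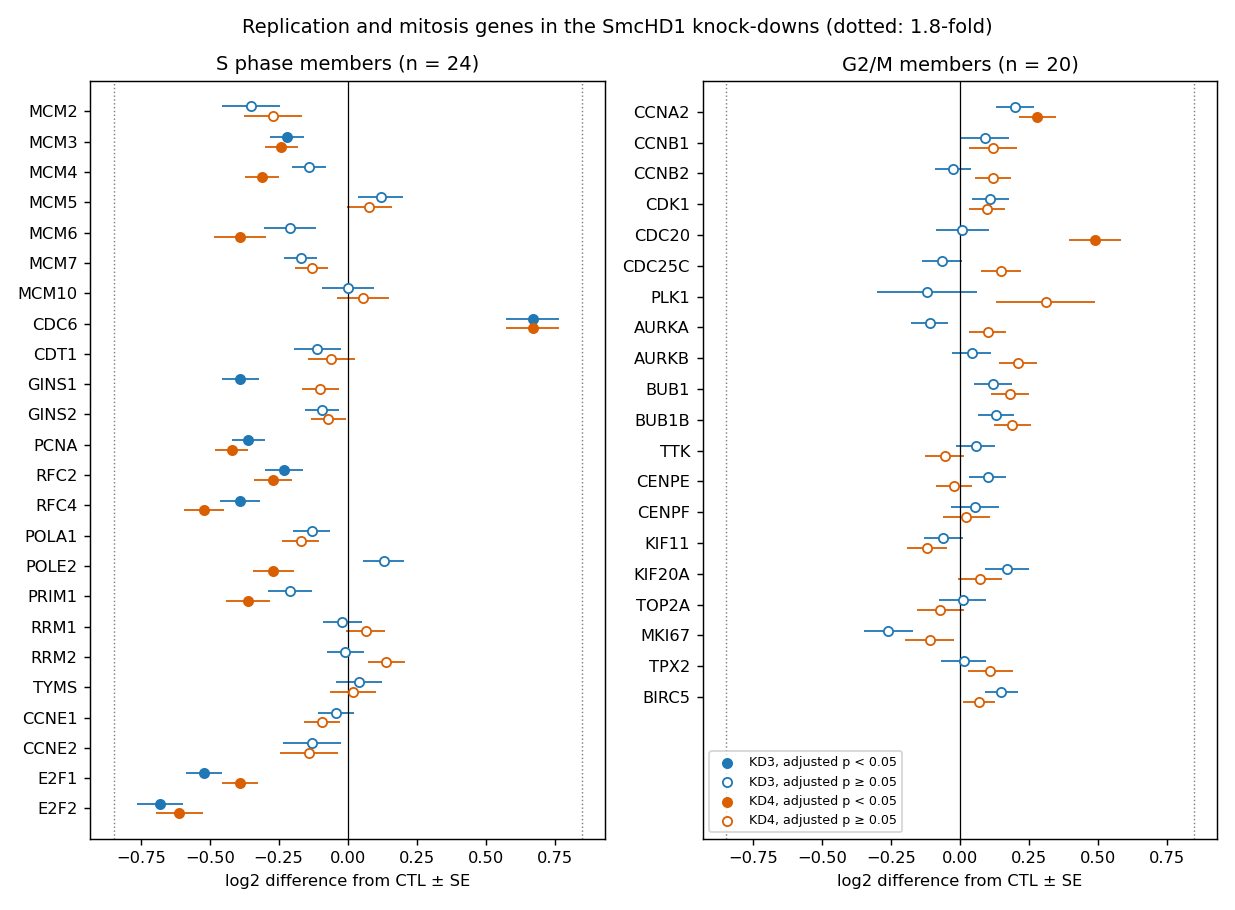
Log2 difference from CTL (x axis, points, with the standard error as bars) of the 24 S phase members (left) and 20 G2/M members (right) in KD3 (blue) and KD4 (orange), with filled points for an adjusted p under 0.05 and dotted lines at 1.8-fold. Most S phase members lie to the left of 0, CDC6 lies farthest to the right at 0.67, and no point reaches 1.8-fold.

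The MCM2 to MCM7 proteins form the helicase that is loaded on origins in G1 and unwinds DNA in S phase. MCM3 on chromosome 6 had a log2 signal of 15.83, 15.86 and 15.83 on the CTL arrays, 15.62, 15.67 and 15.57 on KD3 arrays and 15.64, 15.59 and 15.58 on KD4 arrays. It fell in both knock-downs, by a log2 difference of -0.22 in KD3 (1.16-fold, SE 0.0606, adjusted p = 0.035) and -0.24 in KD4 (1.18-fold, adjusted p = 0.019). The KD3 call was lost when any of the 9 arrays was left out and with the slide as a block (adjusted p = 0.069), among other settings, and the KD4 call without KD4 array 2 or KD4 array 3. MCM4 had 12.81, 12.77 and 12.71 in CTL, 12.59, 12.63 and 12.65 in KD3 and 12.43, 12.45 and 12.47 in KD4. It fell in KD4 (-0.31, 1.24-fold, adjusted p = 0.0058) and did not pass in KD3 (-0.14, adjusted p = 0.15), although neither knock-down overlapped CTL. MCM6 had 14.74, 14.98 and 14.76 in CTL, 14.68, 14.61 and 14.57 in KD3 and 14.34, 14.57 and 14.38 in KD4. Its difference was -0.21 in KD3 (adjusted p = 0.16) and -0.39 in KD4 (1.31-fold, adjusted p = 0.015), the latter lost without KD4 array 1 or KD4 array 3.

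MCM2 showed how much a single CTL array could weigh. Its signal was 13.31, 13.03 and 12.87 in CTL, 12.69, 12.74 and 12.75 in KD3 and 12.77, 12.84 and 12.81 in KD4, with no overlap between CTL and either knock-down. The difference was -0.35 in KD3 (adjusted p = 0.051) and -0.27 in KD4 (adjusted p = 0.093), and both passed when CTL array 3 was left out (KD3 also after normexp background correction and with the filter for probes well above background on all arrays). MCM7 (-0.17 and -0.13 in KD3 and KD4), MCM5 (0.12 and 0.078) and MCM10 (0.0013 and 0.056), a factor that helps start the helicase, did not pass. Another MCM7 probe gave 0.03 in KD4, with the opposite sign.

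CDC6, the ATPase on chromosome 17 that brings MCM2 to MCM7 onto origins, was the S phase member that rose. It had a single probe, the dimmest of those chosen for the members, though well above background on every array. The log2 signal was 7.58, 7.53 and 7.41 on the CTL arrays, 8.24, 8.27 and 8.02 on KD3 arrays and 8.30, 8.05 and 8.17 on KD4 arrays. All 6 knock-down arrays lay above all 3 CTL arrays. The log2 difference was 0.67 in KD3 (1.59-fold, SE 0.0969, adjusted p = 0.002) and 0.67 in KD4 (1.59-fold, adjusted p = 0.0015). CDT1, which acts with CDC6 in licensing, differed by -0.11 and -0.059 and did not pass. GINS1, a subunit of the GINS complex that completes the active helicase, had 13.94, 14.07 and 14.00 in CTL, 13.65, 13.64 and 13.55 in KD3 and 13.89, 13.88 and 13.95 in KD4. It fell in KD3 (-0.39, 1.31-fold, SE 0.0671, adjusted p = 0.0048), whereas KD4 overlapped CTL (-0.099, adjusted p = 0.31). The difference between KD4 and KD3 was 0.29 (adjusted p = 0.064), so the knock-downs were not shown to differ. GINS2, another subunit, differed by -0.093 and -0.07 and did not pass.

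PCNA, the sliding clamp that tethers polymerases to DNA, and the clamp loader subunits RFC4 and RFC2 were lower in both knock-downs. PCNA on chromosome 20 had a log2 signal of 15.31, 15.28 and 15.31 in CTL, 15.00, 14.90 and 14.94 in KD3 and 14.88, 14.91 and 14.86 in KD4. The groups did not overlap with CTL, and the difference was -0.36 in KD3 (1.28-fold, SE 0.0603, adjusted p = 0.0043) and -0.42 in KD4 (1.33-fold, adjusted p = 0.0015). Another PCNA probe gave -0.43 (adjusted p = 0.0032) and -0.47 (adjusted p = 0.0016). RFC4 on chromosome 3 had 13.90, 13.88 and 14.06 in CTL, 13.60, 13.56 and 13.50 in KD3 and 13.46, 13.45 and 13.38 in KD4. Its difference was -0.39 in KD3 (1.31-fold, SE 0.073, adjusted p = 0.0066) and -0.52 in KD4 (1.43-fold, adjusted p = 0.0014). RFC2 had 11.49, 11.54 and 11.50 in CTL, 11.18, 11.35 and 11.31 in KD3 and 11.24, 11.27 and 11.22 in KD4, a difference of -0.23 (adjusted p = 0.045) and -0.27 (1.2-fold, adjusted p = 0.02). The RFC2 call in KD3 was lost when any of the 9 arrays was left out and with the slide as a block (adjusted p = 0.087), among other settings, and that in KD4 without KD4 array 1, KD4 array 3 or CTL array 2.

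The polymerase genes moved less evenly. PRIM1, the catalytic primase subunit that lays down RNA primers, had 12.11, 12.19 and 12.33 in CTL, 12.06, 11.99 and 11.96 in KD3 and 11.78, 11.93 and 11.82 in KD4. It fell in KD4 (-0.36, 1.29-fold, SE 0.0796, adjusted p = 0.01) and did not pass in KD3 (-0.21, adjusted p = 0.11). POLA1, the catalytic subunit of polymerase alpha and the member on the X chromosome, had 13.16, 13.16 and 13.18 in CTL, 13.10, 13.07 and 12.95 in KD3 and 13.01, 12.94 and 13.04 in KD4. The knock-down arrays all lay below the CTL arrays, but the differences of -0.13 (SE 0.0666, adjusted p = 0.23) and -0.17 (adjusted p = 0.094) did not pass. POLE2, an accessory subunit of polymerase epsilon on chromosome 14, had 10.16, 10.19 and 10.09 in CTL, 10.39, 10.22 and 10.23 in KD3 and 9.88, 9.94 and 9.81 in KD4. KD3 lay above CTL and KD4 below it, with differences of 0.13 (SE 0.0744, adjusted p = 0.27) and -0.27 (1.21-fold, adjusted p = 0.026). The KD4 call was lost without KD4 array 1, KD4 array 3, CTL array 1 or CTL array 2. The genes of nucleotide supply, RRM1 and RRM2 of ribonucleotide reductase and TYMS of thymidylate synthesis, differed by between -0.019 and 0.14 and did not pass.

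E2F1 and E2F2, activator E2F factors of the passage from G1 to S, had the smallest adjusted p of the S phase members in KD3. E2F1 on chromosome 20 had a log2 signal of 11.87, 12.01 and 11.93 in CTL, 11.41, 11.42 and 11.43 in KD3 and 11.52, 11.59 and 11.54 in KD4. It fell by a difference of -0.52 in KD3 (1.43-fold, SE 0.0645, adjusted p = 0.00099) and -0.39 in KD4 (1.31-fold, adjusted p = 0.003). E2F2 on chromosome 1 had 13.27, 13.20 and 13.38 in CTL, 12.61, 12.70 and 12.50 in KD3 and 12.70, 12.58 and 12.75 in KD4. The difference was -0.68 in KD3 (1.6-fold, SE 0.084, adjusted p = 0.00093) and -0.61 in KD4 (1.53-fold, adjusted p = 0.0012). For both factors every knock-down array lay below every CTL array. CCNE1, the cyclin that drives CDK2 at S phase entry, had 13.03, 13.03 and 13.05 in CTL, 12.95, 13.09 and 12.94 in KD3 and 12.91, 12.97 and 12.95 in KD4. It did not pass (-0.043, adjusted p = 0.71, and -0.094, adjusted p = 0.32), nor did CCNE2 (-0.13 and -0.14), whose other probe gave 0.13 in KD3 and -0.046 in KD4.

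**Figure D2:**
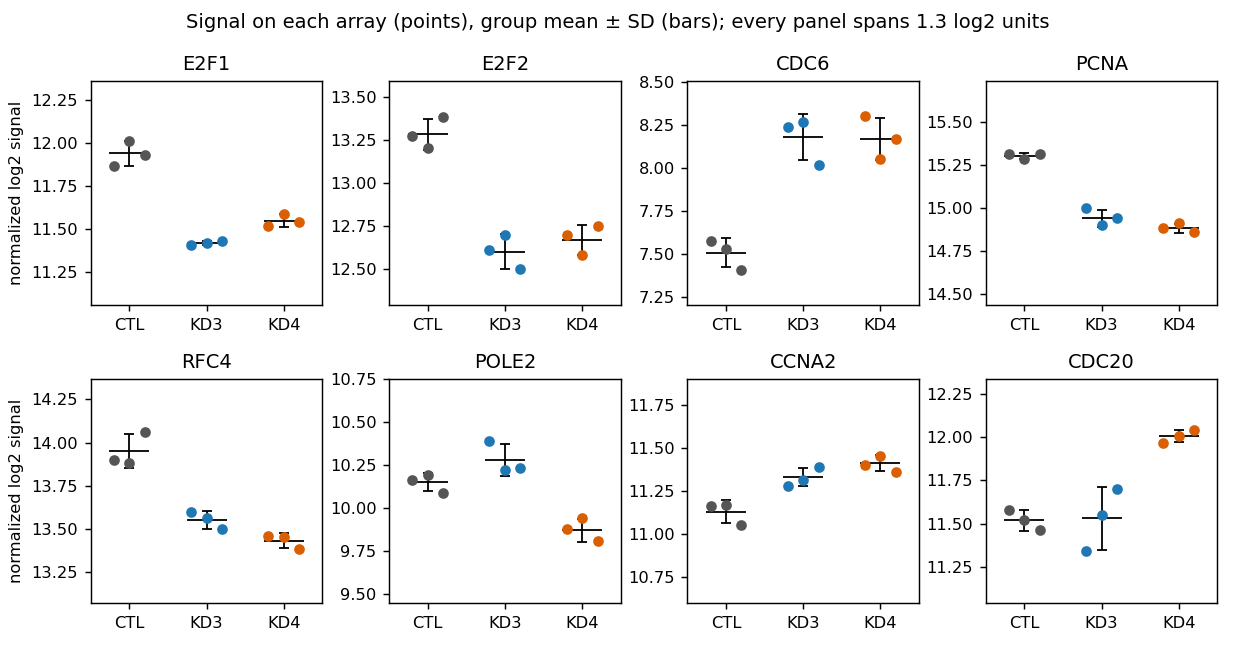
Normalized log2 signal (y axis) of 8 members on the 3 arrays of CTL, KD3 and KD4 (points), with the group mean and SD as bars and the same span in every panel. The knock-down arrays lie below CTL for E2F1, E2F2, PCNA and RFC4 and above it for CDC6, whereas CDC20 lies above all other arrays on the 3 KD4 arrays, at 11.97 to 12.04.

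Of the S phase members whose promoter held an E2F word, 6 of 14 passed in KD3 and 7 of 14 in KD4, and of those without one, 2 of 7 and 3 of 7, where 25.2% and 34.5% of all tested genes passed. Of the members with the word that passed, CDC6 rose and the others fell, and those without the word that passed all fell. A link between the word and the direction was not tested. MCM6 and RRM1 were the S phase members whose promoter held a CHR word.

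The mitotic cyclins and CDK1 drive entry into mitosis. CCNA2, which acts in S phase and G2, had 11.16, 11.17 and 11.05 in CTL, 11.28, 11.31 and 11.39 in KD3 and 11.40, 11.45 and 11.36 in KD4. Both knock-downs lay above CTL, and the difference was 0.20 in KD3 (SE 0.0681, adjusted p = 0.069) and 0.28 in KD4 (1.22-fold, adjusted p = 0.016). The KD4 call was lost without KD4 array 1, KD4 array 2 or CTL array 3. CCNB1 had 13.93, 14.03 and 13.78 in CTL, 14.01, 13.94 and 14.06 in KD3 and 14.04, 14.12 and 13.93 in KD4, with overlap between groups and differences of 0.091 (adjusted p = 0.53) and 0.12 (adjusted p = 0.36). Its other probe gave -0.022 and -0.21 (adjusted p = 0.071 in KD4), so the sign for CCNB1 depended on the probe. CDK1 had 13.78, 13.79 and 13.69 in CTL, 13.90, 13.81 and 13.88 in KD3 and 13.88, 13.88 and 13.79 in KD4, and its differences of 0.11 (adjusted p = 0.29) and 0.099 (adjusted p = 0.3) did not pass. CCNB2 (-0.025 and 0.12) and the phosphatase gene CDC25C (-0.067 and 0.15) did not pass either.

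CDC20, the activator of the anaphase-promoting complex, was the G2/M member with the largest difference from CTL in KD4. The log2 signal was 11.58, 11.52 and 11.46 in CTL, 11.34, 11.55 and 11.70 in KD3 and 11.97, 12.01 and 12.04 in KD4. KD3 overlapped CTL (0.0085, SE 0.0948, adjusted p = 0.97), and KD4 lay above all other arrays (0.49, 1.4-fold, adjusted p = 0.006). The KD3 arrays had an SD of 0.181, against 0.0609 in CTL and 0.0348 in KD4.

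The mitotic kinases and checkpoint genes did not pass in either knock-down on their brightest probe. AURKB, the kinase of the chromosomal passenger complex, had 11.22, 11.28 and 11.15 in CTL, 11.21, 11.34 and 11.22 in KD3 and 11.38, 11.41 and 11.48 in KD4 (0.042, adjusted p = 0.73, and 0.21, adjusted p = 0.058). BUB1B, a spindle checkpoint protein, had 12.11, 12.15 and 12.01 in CTL, 12.15, 12.25 and 12.25 in KD3 and 12.27, 12.28 and 12.29 in KD4 (0.13, adjusted p = 0.23, and 0.19, adjusted p = 0.063). In both genes the KD4 arrays lay above the CTL arrays, but the difference did not pass. PLK1 depended on the probe. Its brightest probe ranged from 9.13 to 9.72 in CTL, 8.96 to 9.52 in KD3 and 9.64 to 9.79 in KD4 (-0.12, adjusted p = 0.71, and 0.31, adjusted p = 0.23), whereas a dimmer probe gave 0.24 (adjusted p = 0.086) and 0.46 (adjusted p = 0.0045). AURKA (-0.11 and 0.10), BUB1 (0.12 and 0.18) and TTK (0.056 and -0.056) did not pass.

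None of the centromere, motor and chromosome genes passed in either knock-down. KIF20A, a kinesin of late mitosis, had 11.16, 11.10 and 10.89 in CTL, 11.22, 11.24 and 11.22 in KD3 and 11.09, 11.16 and 11.11 in KD4 (0.17, adjusted p = 0.17, and 0.071, adjusted p = 0.55). BIRC5, the survivin subunit of the chromosomal passenger complex, had 15.53, 15.53 and 15.49 in CTL, 15.68, 15.70 and 15.62 in KD3 and 15.58, 15.58 and 15.59 in KD4. Neither knock-down overlapped CTL, yet the differences of 0.15 (adjusted p = 0.11) and 0.068 (adjusted p = 0.42) did not pass. MKI67, which encodes the proliferation antigen Ki-67, had 11.51, 11.75 and 11.45 in CTL, 11.29, 11.37 and 11.28 in KD3 and 11.47, 11.42 and 11.49 in KD4. All 3 KD3 arrays lay below CTL, and the difference did not pass in KD3 (-0.26, adjusted p = 0.074) or KD4 (-0.11, adjusted p = 0.39). The other MKI67 probes gave -0.19 and -0.24 in KD3, again with every KD3 array below CTL, and -0.0074 and 0.0035 in KD4. CENPE (0.10 and -0.022), KIF11 (-0.061 and -0.12), TOP2A (0.009 and -0.072) and TPX2 (0.014 and 0.11) did not pass. CENPF did not pass either, and its sign depended on the probe (0.054 and 0.023 on the brightest, -0.095 and -0.13 on the other).

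The lists were also followed array by array, as the median deviation of the list from the CTL mean. By this definition the CTL arrays are centered near 0, and all knock-down arrays share the same CTL mean. For the S phase members it was -0.0099 to -0.0039 on the CTL arrays, -0.18 to -0.14 on KD3 arrays and -0.18 to -0.16 on KD4 arrays. For the G2/M members it was -0.06 to 0.038 on the CTL arrays, 0.048 to 0.077 on KD3 arrays and 0.086 to 0.12 on KD4 arrays. Over all tested genes the knock-down arrays had medians between -0.017 and 0.0079. A set of 12 housekeeping genes gave -0.058 to -0.024 on KD3 arrays and -0.1 to -0.041 on KD4 arrays, so the S phase medians lay further below 0 than those of housekeeping genes on every knock-down array. A list of 41 other replication genes, described below, gave -0.076 to -0.055 on KD3 arrays and -0.11 to -0.052 on KD4 arrays. Those ranges overlapped the ranges of the housekeeping genes. The arrays were on 2 slides, and each slide held all 3 groups. Slide 1 held 1 CTL, 2 KD3 and 1 KD4 array, and slide 2 held 2 CTL, 1 KD3 and 2 KD4 arrays. Within slide 1 the S phase median was -0.15 in KD3 and -0.17 in KD4, and within slide 2 it was -0.13 and -0.15. The G2/M median was 0.059 and 0.061 within slide 1 and 0.067 and 0.13 within slide 2. All 8 members that passed in KD3 and all 13 that passed in KD4 had the same sign within each slide. These signs come from the same arrays that gave the calls, so they are not independent of them. With the slide as a block in the fit, 6 members passed in KD3 and 13 in KD4.

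**Figure D3:**
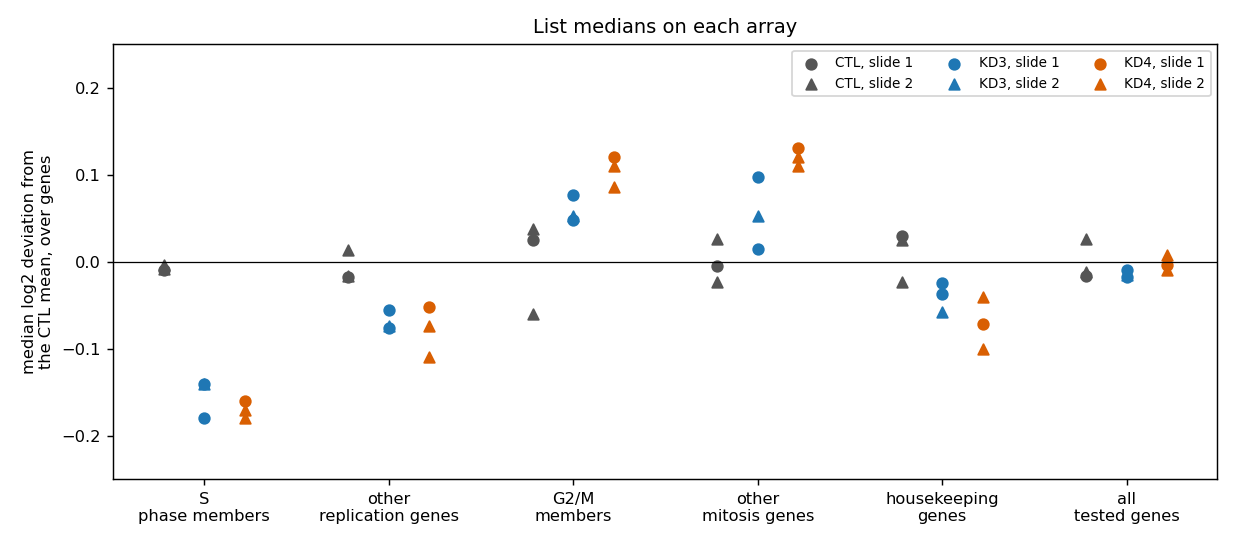
Median over the genes of a list of the log2 deviation from the CTL mean (y axis), for each of the 9 arrays by group (color) and slide (shape). The S phase members lie at or below -0.14 on all 6 knock-down arrays, and the G2/M members lie above 0, from 0.048 to 0.12.

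The direct comparison of KD4 with KD3, which differ in the shRNA and in how far SMCHD1 was lowered, passed for 2 of the 44 members (4.55%), against 3.25% of all tested genes. POLE2 was lower in KD4 than in KD3 (-0.40 on the log2 scale, 1.32-fold, SE 0.0744, adjusted p = 0.031). CDC20 was higher in KD4 by 0.48 (1.39-fold, SE 0.0948, adjusted p = 0.039). The KD4 and KD3 arrays did not overlap for either gene. With a fold of at least 1.8, 0 members passed by limma, against 0.547% of all tested genes, while 8 had an unadjusted p under 0.05 and the methods' t-test with adjustment passed 0. Leaving out 1 array left between 0 and 2 members. The POLE2 call was lost when any KD3 or KD4 array was left out. The CDC20 call was lost without KD3 array 1 or 2, without each of the KD4 arrays, and without CTL array 2 or 3. With the slide as a block, 0 members passed.

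Other genes of the same processes, from lists of 41 replication genes and 41 mitosis genes on the array that were not members, were counted in the same way. In the replication list, 4 rose and 3 fell in KD3, and 6 rose and 6 fell in KD4, with medians of -0.08 and -0.078. The shares that passed were 17.1% in KD3 and 29.3% in KD4, below the 25.2% and 34.5% of all tested genes. The share that fell was 7.32% in KD3 and 14.6% in KD4. Unlike those of the S phase members, these lay below the 14.8% and 19.8% of all tested genes. ORC2, a subunit of the origin recognition complex, rose by 0.43 in KD3 (adjusted p = 0.0026) and 0.62 in KD4 (adjusted p = 0.00033), though these calls were lost on its dimmest probe. RPA1, which coats single-stranded DNA, rose by 0.41 (adjusted p = 0.013) and 0.52 (adjusted p = 0.0032). TK1, a thymidine kinase of S phase, rose by 0.54 in KD4 (adjusted p = 0.0009) and did not pass in KD3 (0.13, adjusted p = 0.22). In the mitosis list, 5 rose and 2 fell in KD3, and 6 rose and 0 fell in KD4, with medians of 0.042 and 0.097. Here 17.1% passed in KD3 and 14.6% in KD4, also below all tested genes. The 14.6% that rose in KD4 was near the 14.7% of all tested genes. NCAPG, a condensin subunit, rose by 0.46 in KD3 (adjusted p = 0.01) and 0.48 in KD4 (adjusted p = 0.0062), and ASPM of the spindle pole rose by 0.29 (adjusted p = 0.013) and 0.25 (adjusted p = 0.017). The kinesin gene KIFC1 rose by 0.54 in KD4 (adjusted p = 0.00062) and did not pass in KD3 (0.18, adjusted p = 0.086). The ASPM call in KD3 was lost when KD3 and CTL alone were fitted and on its dimmest probe, and that in KD4 when any KD4 array was left out.

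Regulators of the cell cycle moved in both directions. Of 28 cell cycle regulators, 5 rose and 3 fell in each knock-down. That is 28.6% in each, against 25.2% of all tested genes in KD3 and 34.5% in KD4. CDK6, a partner of the D cyclins, rose by 0.58 in KD3 (adjusted p = 0.0012) and 0.39 in KD4 (adjusted p = 0.0057). CCND1, which encodes cyclin D1, rose by 0.50 (adjusted p = 0.0056) and 0.68 (adjusted p = 0.001). RBL1, the p107 pocket protein, had differences of -0.36 (adjusted p = 0.013, lost on its dimmest probe) and -0.41 (adjusted p = 0.0056). MYBL2, which encodes B-MYB, fell by 0.51 in KD3 (adjusted p = 0.0021) and did not pass in KD4 (0.067, adjusted p = 0.54). Of 7 CDK inhibitors, 3 fell in KD3 (42.9% passed), and 3 fell and 2 rose in KD4 (71.4% passed). CDKN1C, which encodes p57, had 10.52, 10.86 and 10.91 in CTL, 9.67, 9.63 and 9.79 in KD3 and 9.80, 10.01 and 9.86 in KD4. It fell by 1.07 in KD3 (adjusted p = 0.00045) and 0.87 in KD4 (adjusted p = 0.00094). CDKN1A, which encodes p21, had differences of -0.47 in KD3 (adjusted p = 0.0093) and -0.41 in KD4 (adjusted p = 0.013). CDKN2B, which encodes p15, rose by 0.86 in KD4 (adjusted p = 0.003) and did not pass in KD3 (0.45, adjusted p = 0.061) unless CTL array 2 was left out.

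Target genes of p53, the factor through which DNA damage holds the cell cycle, were counted as well. Of 12, 2 rose and 2 fell in KD3, and 1 rose and 9 fell in KD4, with medians of -0.063 and -0.47. In KD3 33.3% passed, against 25.2% of all tested genes, and in KD4 83.3%, against 34.5%. The share that fell in KD4 was 75%, against 19.8% of all tested genes. All 12 were lower in KD4 than in KD3, with a median of -0.38. Of these, 4 passed in that comparison (33.3%, against 3.25% of all tested genes). TP53I3 had differences of 0.43 in KD3 (adjusted p = 0.0037) and 0.22 in KD4 (adjusted p = 0.046), the latter lost when any of the 9 arrays was left out. BBC3, which encodes PUMA, had -0.44 (adjusted p = 0.0038) and -0.71 (adjusted p = 0.00028). GADD45A fell by 0.73 in KD4 (adjusted p = 0.00079) and did not pass in KD3 (-0.30, adjusted p = 0.051), where it passed without CTL array 2 and under other settings. Of the 12 housekeeping genes, 1 fell in KD3 (8.33%), and 1 fell and 1 rose in KD4 (16.7%). TBP had differences of -0.30 (adjusted p = 0.012) and -0.37 (adjusted p = 0.0032), and ACTB rose by 0.26 in KD4. The ACTB call (adjusted p = 0.024) was lost without KD4 array 2 or 3 or without CTL array 2 or 3.

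**Figure D4:**
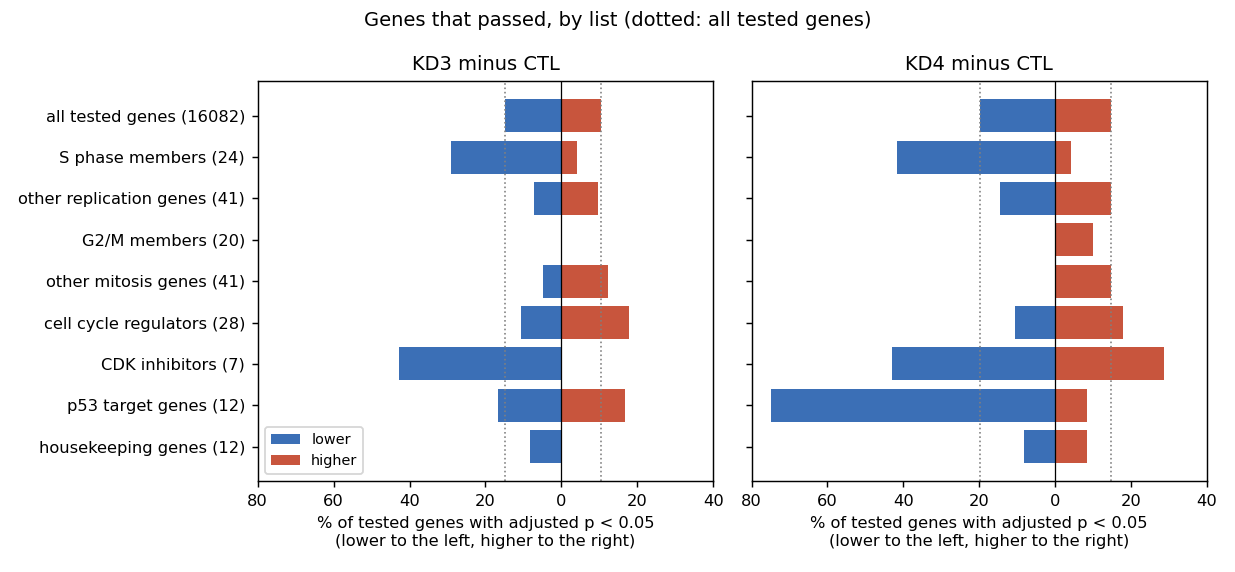
Percent of the tested genes of each list that passed at an adjusted p under 0.05 (x axis), lower to the left and higher to the right of 0, in KD3 (left) and KD4 (right), with dotted lines at the share of all tested genes. S phase members reach 29.2% and 41.7% on the lower side, and the p53 target genes have 9 of 12 lower in KD4.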

How the data were processed

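RNA of HEK293 cells with shRNA 3 (KD3), shRNA 4 (KD4) or NC5 (CTL) was hybridized to one-color Agilent arrays, 3 per group. The authors deposited an intensity for each of 58717 spots, the green processed signal of Agilent Feature Extraction 10.10 (10.10.1.1 in the file headers), already background-subtracted, and a table of log2 values that they had normalized in GeneSpring, used here as an alternative. Its values minus those computed here had a median of -0.075.

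Control spots and outlier spots (260 to 634 per array) were left out, and no spot was saturated. Quantile normalization of the log2 signals (the methods write quintile) was run with limma 3.58.1 in R 4.3.3. Replicate spots were averaged to a probe value, and 21 of 42405 probes were dropped. Of the 42384 probes used, 25413 were named by RefSeq accession through a gene table of GRCh38.p14. The array annotation uses an earlier build, so no probe coordinates are given. A probe was tested if all arrays of some group had it well above background (32276 probes), with lmFit and eBayes, with a mean for each group and Benjamini-Hochberg adjustment. A gene is its brightest tested probe. The fit was tested on simulated data. The number of arrays limits the precision, and arrays of a group had a Pearson correlation of at least 0.995 over the tested probes (0.990 over all probes).

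Members named with every array are the 4 with the smallest adjusted p per list and knock-down, those that passed between the knock-downs, POLA1, and PCNA, CCNE1, CCNB1, CDK1 and MKI67; other members that passed were added after their values were seen. From each other list the 2 genes with the smallest adjusted p in a comparison were eligible, and those that passed in that comparison are named in the report, with their values in the other knock-down. Marker genes, PPIA and PRIM2 are named outside this rule. Members and lists were chosen with earlier results of these data known. The alternatives tried were the 75th percentile as scale, normexp with an offset of 50, the authors' log2 values, other filters on dim probes, the dimmest probe, the methods' t-test, fits of 2 groups, the slide or the replicate number as a block, and each array left out. A list of markers of another cell line is not reported here. Other assays of the study were not analysed here.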

Additional observations from a re-analysis of the deposited data

Results flagged for a closer look

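POLE2 and CDC20 differed between the knock-downs in the direct test of KD4 against KD3, POLE2 by a log2 difference of -0.40 and CDC20 by 0.48. For POLE2, the 3 KD3 arrays (10.22 to 10.39) lay above the CTL arrays and the 3 KD4 arrays (9.81 to 9.94) below them. For CDC20, the KD3 arrays ranged from 11.34 to 11.70 and the KD4 arrays from 11.97 to 12.04. Both calls were lost in fits that left out single arrays and with the slide as a block. SMCHD1 differed by -0.56 in the same test.

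Of the other genes named, TK1 (0.40, adjusted p = 0.026 by limma) and KIFC1 (0.36, adjusted p = 0.028) were higher in KD4 than in KD3, and these calls were lost when any KD3 or KD4 array was left out, in a fit of KD3 and KD4 alone, with the replicate number as a block, and with the slide as a block (adjusted p = 0.058 and 0.062). MYBL2 was higher in KD4 by 0.57 (adjusted p = 0.0085) and MYC lower by a difference of -0.53 (adjusted p = 0.0085). Against CTL, MYC passed in KD3, where it rose by 0.45, and did not pass in KD4 (-0.08). The p53 target genes FAS (-0.67, adjusted p = 0.0062) and ZMAT3 (-0.50, adjusted p = 0.0096) were lower in KD4. Their differences from CTL were 0.19 in KD3 and -0.48 in KD4 for FAS, and 0.04 and -0.45 for ZMAT3. On the brightest probes both genes passed against CTL in KD4 only, and for FAS that call was lost on its dimmest probe. Calls between KD4 and KD3 for MYBL2, MYC, FAS and ZMAT3 were lost under the methods' t-test with adjustment and in no other fit.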

How the results depend on the processing

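Of 2686 values of members under another setting, 83 no longer passed and 31 passed newly. The other 2572 stayed on their side of the threshold or, within a slide, kept the sign of a call. They include values that changed sign without passing under either setting. No call of a member changed sign. Most of the 2686 values were of members and comparisons that had not passed in the main fit, where no call could be lost. Of the calls in the main fit, 6 of 8 in KD3 held in every limma setting. In KD4 8 of 13 did, and between KD4 and KD3 0 of 2. Leaving out 1 array at a time gave 6 to 7 members passed in KD3, 9 to 13 in KD4 and 0 to 2 between KD4 and KD3. The methods' t-test with adjustment gave 0, 6 and 0 members (375, 1376 and 0 of all tested genes), and without adjustment 21 in KD4 and 14 between the knock-downs. Between KD4 and KD3, scaling to the 75th percentile gave 1 member, and the absence of a filter on dim probes, a fit of the 2 groups alone and the slide as a block each gave 0. The S phase median in KD3 was -0.097 with scaling to the 75th percentile, -0.12 with the authors' log2 values and -0.15 within slide 1, and -0.16 to -0.13 with 1 array left out. In KD4 it was -0.13 on the dimmest probes. Its difference between KD4 and KD3, -0.016, was 0.02 with normexp, 0.0045 within slide 1, -0.056 within slide 2, and -0.03 to 0.0064 with 1 array left out. The G2/M median in KD3 was 0.028 on the dimmest probes and 0.022 to 0.071 with 1 array left out, the lowest without CTL array 3. In KD4 it was 0.061 within slide 1 and 0.064 to 0.13 with 1 array left out, the lowest without CTL array 3. On the dimmest probe, PPIA gave -0.58 in KD3 and -0.44 in KD4, against 0.02 and 0.13 on the brightest, and PRIM2 gave 0.04 in KD4 against -0.42. Another PRIM2 probe gave -0.62 in KD4 (adjusted p = 0.00094 by limma), with the sign of the brightest. The cause of these shifts was not tested. Samples with the same replicate number did not deviate together (r from -0.0775 to 0.143 over 9 pairs), and with the replicate number as a block 6, 13 and 0 members passed in KD3, in KD4 and between them.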
